A study of Mus musculus with 14 samples.

Results

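The unfolded protein response (UPR) and endoplasmic reticulum (ER) folding genes were followed in bulk RNA sequencing of mouse colon, as a list of 32 genes named by function: 7 sensors and transcription factors, 9 chaperones and co-chaperones, 4 disulfide isomerases, 5 genes of ER-associated degradation, 3 translocon genes and 4 genes of the ATF4 branch. Members were matched by gene name, and the rule used no measured value, though the list was chosen with earlier results of these data known. All 32 were found among the 55889 genes counted in mice without dextran sulfate sodium (DSS) and among the 54721 genes counted after DSS, and 32 of 15441 and 31 of 14908 genes with enough reads for a test were members. The member that dropped out after DSS was *Trib3*, with 2 to 13 reads per mouse. The mice were C57BL/6N littermates aged 8 to 12 weeks, either wild type (WT) or miR-29ab1-/- (KO), which lack the miR-29a and miR-29b-1 hairpins in every cell from the germline on. Without DSS there were 4 WT and 4 KO mice, and after 3 days of 3.5% DSS, a sulfated polysaccharide that injures the colon epithelium, there were 3 WT and 3 KO mice. Each library came from a different mouse. The question behind both comparisons was what loss of the 2 microRNAs does to colon gene expression before and during colitis.

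The libraries held 14231157 to 18185020 reads on genes without DSS and 20076719 to 23153149 after DSS. Mitochondrial genes took 5.70% to 13.9% of them without DSS and 6.15% to 20.2% after DSS, where KO mouse 2 (20.2%) and KO mouse 1 (14.8%) stood above the other 4 mice (6.15% to 8.81%). The sample labels name small intestinal crypts and the study's methods name colon. Colonocyte markers summed to between 2137 and 7906 CPM (reads scaled to a common library size, adjusted for composition) in the 14 mice and small intestinal markers (8 genes) to between 17.6 and 59.0 CPM. Of these 8, *Apoa4* and *Lct* were at 0 to 0.330 CPM, so the sum came from the others. In each experiment 4 of the 8 had enough reads for a test. General epithelial markers summed to 9628 to 20230 CPM, fibroblast markers to 4.06 to 44.6 CPM and smooth muscle markers to 0.921 to 3.5 CPM. Markers of colon epithelium were thus abundant, and those listed for the small intestine, stroma and muscle were scarce. Paneth cell markers (4 genes) were not scarce in sum, at 886 to 5468 CPM without DSS and 121 to 1072 CPM after DSS. The median level over these 4 genes was 1.47 CPM without DSS and 0.322 CPM after DSS. Their bearing on the labelled tissue was not tested. Both genes that define the list, *Hspa5* and *Xbp1*, were abundant in every mouse, at 404 to 1267 CPM and 191 to 337 CPM. The hairpins themselves were not measurable (0 or 1 read in every mouse), but the transcript *Gm27019* beside them had 151 to 411 reads per KO mouse against 0 to 2 per WT mouse, so every library lay on the side of its genotype label. In bulk tissue, fewer cells of a type and less RNA per cell cannot be told apart.

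Proteins that are secreted or placed in membranes fold in the ER, and cells that secrete heavily, such as mucus-making goblet cells and antibody-making plasma cells, need much of this machinery. When unfolded proteins pile up, the sensors IRE1 (encoded by *Ern1*, and by *Ern2* in mucus-secreting epithelium), PERK (*Eif2ak3*) and ATF6 signal to the nucleus: IRE1 splices *Xbp1* mRNA, PERK slows translation and favours translation of ATF4, and ATF6 is cut to release a transcription factor. Their targets refill the ER with chaperones and isomerases, widen the translocon and degrade proteins that cannot be folded. Splicing of *Xbp1* and phosphorylation of the sensors do not show in reads per gene.

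The promoters of the members were searched for the response elements through which the UPR's transcription factors are known to act. The elements found are printed to show which members hold them. RefSeq promoter windows of 300 bases (250 before and 50 after the start, GRCm38.p6) were matched for 27 of the 32 members. The ER stress response element (ERSE, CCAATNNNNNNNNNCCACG, searched on both strands) lay in 6 of the 27 members and in 0.119% of all 32851 windows. Capitals mark the 2 fixed blocks, and each element is written 5′ to 3′ on its own strand.
*Hspa5*, chr2:34772025-34772043, forward strand: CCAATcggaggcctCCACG
*Hsp90b1*, chr10:86705638-86705656, reverse strand: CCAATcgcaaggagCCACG
*Hsp90b1*, chr10:86705533-86705551, forward strand: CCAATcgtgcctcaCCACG
*Creld2*, chr15:88819520-88819538, reverse strand: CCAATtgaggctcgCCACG
*Dnajc3*, chr14:118937827-118937845, forward strand: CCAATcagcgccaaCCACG
*Pdia6*, chr12:17266491-17266509, forward strand: CCAATgaaaggcggCCACG
*Syvn1*, chr19:6046532-6046550, forward strand: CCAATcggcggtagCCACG

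ERSE-II (ATTGGNCCACG) lay in 2 members and in 0.0365% of windows.
*Dnajb11*, chr16:22857852-22857862, forward strand: ATTGGcCCACG
*Herpud1*, chr8:94386377-94386387, forward strand: ATTGGgCCACG

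The C/EBP-ATF response element (CARE, TGATGNAAN), at which ATF4 binds, lay in 4 members and in 3.95% of windows. It was the shortest of these patterns in fixed letters and the most frequent among all windows.
*Asns*, chr6:7693224-7693232, reverse strand: TGATGaAAc
*Chac1*, chr2:119351048-119351056, reverse strand: TGATGcAAc
*Herpud1*, chr8:94386316-94386324, reverse strand: TGATGcAAc
*Trib3*, chr2:152344039-152344047, forward strand: TGATGtAAa

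The UPR element (UPRE, TGACGTGG) was in 0 of the 27 members and in 0.676% of windows. In all, 11 members held at least 1 of the 4 patterns. A match is a run of letters in a window and not a bound site. The windows of *Ern2*, *Sec61a1*, *Atf6*, *Hyou1* and *Manf* were not used here.

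The deleted microRNAs share their seed (bases 2 to 8, in capitals) with miR-29c, whose gene the KO mice keep.
mmu-miR-29a-3p, chr6:31062673-31062694, reverse strand: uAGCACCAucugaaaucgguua
mmu-miR-29b-3p, chr6:31063025-31063047, reverse strand: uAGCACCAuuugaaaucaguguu
mmu-miR-29c-3p, chr1:195037600-195037621, forward strand: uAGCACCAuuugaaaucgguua

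The same mature miR-29b-3p is also encoded at chr1:195037091-195037113, which is intact in KO mice. The 7 bases that pair with the seed, TGGTGCT, occurred in the longest annotated 3′ UTR of 3 of 32 members, against 12.7% of 21674 genes, and the 8-base form that ends in A in 0 of 32, against 2.77%. The 3 sites are given on the strand of the mRNA with the match in capitals.
*Ern1*, chr11:106397889-106397910, reverse strand: ctcagttctggatgTGGTGCTg
*Sel1l*, chr12:91806760-91806781, reverse strand: ccaggtttgctctcTGGTGCTt
*Trib3*, chr2:152337895-152337916, reverse strand: ggggctgtcttctcTGGTGCTg

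None of these 3 members passed a test between genotypes. The log2 fold changes (KO against WT) without DSS were 0.11 (SE 0.17) for *Ern1*, 0.09 (SE 0.11) for *Sel1l* and 0.72 (SE 0.48) for *Trib3*, each with an edgeR adjusted p = 1. After DSS they were -0.14 (SE 0.12, adjusted p = 0.794) for *Ern1* and 0.03 (SE 0.09, adjusted p = 0.965) for *Sel1l*.

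Levels per gene length spread widely over the members. Without DSS the highest was *P4hb*, the beta subunit of prolyl hydroxylase and a disulfide isomerase, at 323 CPM per kb (284 to 376 over 8 mice), above every mouse's value of any other member except *Hspa5* in its highest mouse. *Hspa5*, the ER's HSP70 (BiP), followed at 167 CPM per kb (104 to 300), and the next 4, *Pdia6* (107), *Hsp90b1* (106), *Xbp1* (93.1) and *Sec61b* (87.2), overlapped in range. Of the sensors, *Ern2* had 78.4 CPM per kb (59.6 to 103) and overlapped those 4 in range. The sensors *Eif2ak3* (11.5), *Ern1* (11.3) and *Atf6* (8.21) were scarcer and overlapped each other. Least abundant were 3 members of the ATF4 branch, *Ppp1r15a* at 3.07, *Chac1* at 1.71 and *Trib3* at 0.698 CPM per kb, after *Ddit3* (CHOP, a transcription factor of prolonged ER stress) at 6.80. After DSS the order again opened with *P4hb* (296) and *Hspa5* (150) and closed with *Chac1* (1.40) and *Trib3* (0.143 CPM per kb).

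**Figure D1:**
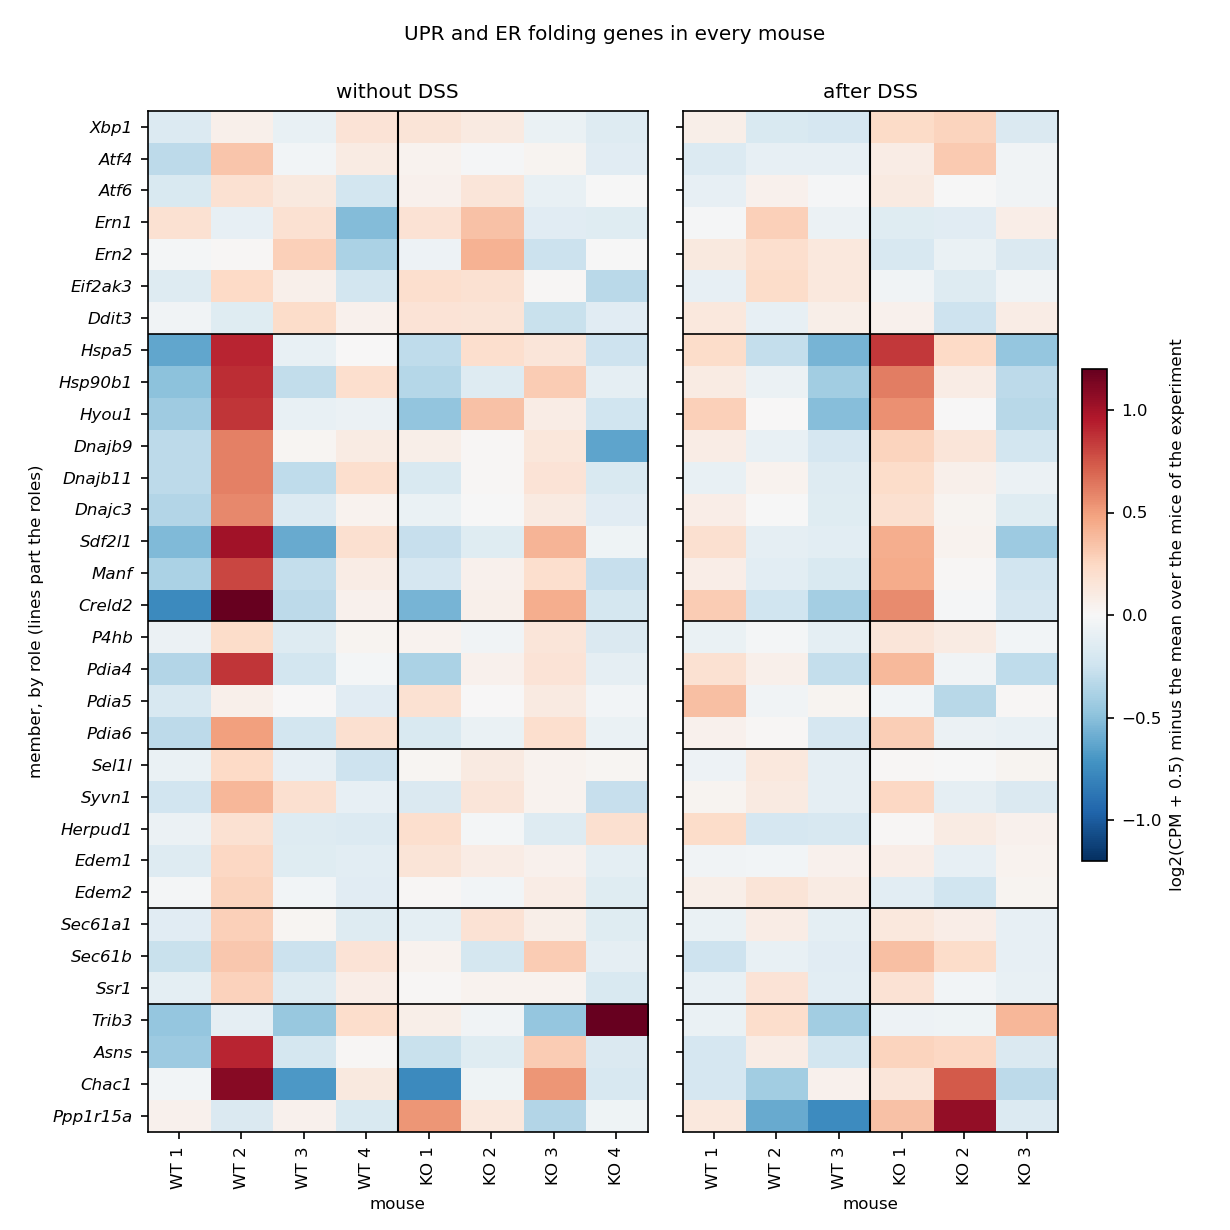
Level of each of the 32 members in each of the 14 mice, as log2(CPM + 0.5) minus the mean of that value over the mice of the same experiment (color), with rows ordered by role and WT and KO mice in columns within each experiment. Without DSS the column of WT mouse 2 is the highest for 24 of 32 members, and after DSS that of KO mouse 1 is the highest for 19 of the 31 tested.

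Without DSS, no member passed the test between genotypes. The genotype comparison by edgeR gave an adjusted p under 0.05 for 0 of 32 members (0.0194% of all genes tested). At an unadjusted p under 0.05, the study's own threshold, 0 members were higher in KO mice (2.09% of all genes) and 0 were lower (1.58%). In 0 members did the mice of the 2 genotypes not overlap, against 1.11% of genes with all KO mice higher and 0.920% with all KO mice lower. DESeq2 likewise gave 0 members at either threshold. The adjusted p was 1 for each of the 32. *Trib3*, a pseudokinase induced by ATF4, had the fold farthest from 0 (log2 0.72), with KO mouse 4 at 3.87 CPM beside 0.825 to 1.62 CPM in the other 7 mice. The median log2 fold change over the 32 members was -0.05, beside 0.00 over all genes tested, and it was 0.13 without WT mouse 2. The precision differed between members: the 95% interval of the log2 fold change lay within 1 of 0 in 28 members and within 0.5 of 0 in 19.

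*Hspa5* was at 438, 1267, 635 and 679 CPM in WT mice 1 to 4 and at 546, 775, 744 and 567 CPM in KO mice 1 to 4. WT mice held both the lowest and the highest value, and all 4 KO mice lay between them. Its log2 fold change was -0.20 (SE 0.30, 95% interval -0.87 to 0.47, edgeR adjusted p = 1). *Xbp1*, which encodes the transcription factor made after IRE1 splicing, was at 268, 315, 284 and 337 CPM in WT mice and at 336, 325, 285 and 270 CPM in KO mice. The genotypes covered nearly the same range, and the log2 fold change of 0.01 (SE 0.11, 95% interval -0.24 to 0.26) bounded any difference more tightly than for *Hspa5*. The 9 chaperones and co-chaperones all had a fold below 0, with a median log2 fold change of -0.19 and an unadjusted p above 0.05 in each. Without WT mouse 2, 1 of the 9 was below 0 and their median was 0.14.

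**Figure D2:**
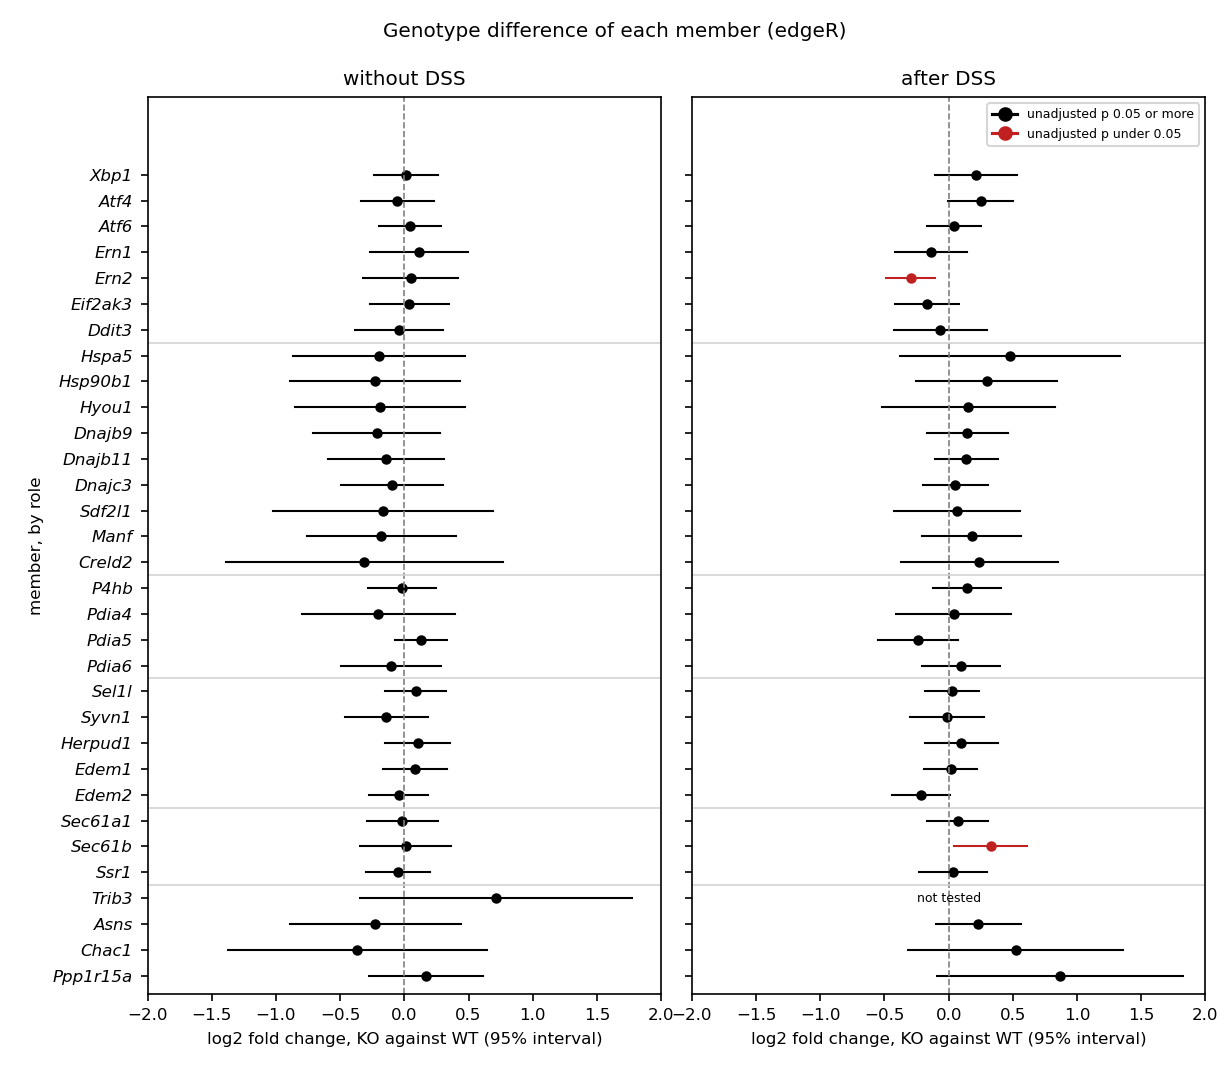
Log2 fold change of each member in KO against WT mice, with its 95% interval from edgeR's quasi-likelihood fit, without DSS (left) and after DSS (right), ordered by role. Red points have an unadjusted p under 0.05, which was 0 of 32 members without DSS and *Ern2* and *Sec61b* after DSS, and no member had an adjusted p under 0.05.

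What varied without DSS was the single mouse. WT mouse 2 had the highest level of 8 mice in 24 of the 32 members, while it was the highest for 12.9% of all genes tested. In 11 members (34.4%) its level was at least 1.5 times the median of the other 7 mice, and this was so for 3.85% of genes. This mouse was singled out after its values were seen, so these counts are a description. The member farthest from the others was *Creld2*, a secreted ER stress factor, at 140 CPM beside 32.9 to 76.7 CPM in the other mice (2.87 times their median). *Sdf2l1*, which works with BiP's co-chaperones, was at 110 CPM beside 35.5 to 72.1 (2.24 times). *Hsp90b1* (GRP94, the ER's HSP90) was at 753 CPM beside 291 to 506 (2.06 times). *Manf*, a small secreted protein that binds BiP, was at 220 CPM beside 96.5 to 145 (2.01 times), *Hspa5* stood at 2.00 times, and *Hyou1*, a nucleotide exchange factor of BiP, was at 329 CPM beside 131 to 232 (1.93 times).

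Outside the folding machinery, 2 genes of the ATF4 branch were also high in WT mouse 2. *Asns*, asparagine synthetase, was at 102 CPM beside 39.9 to 66.8 (2.14 times the median of the others) and *Chac1*, which degrades glutathione, was at 5.96 CPM beside 1.29 to 3.87 (2.45 times). Other members did not stand out in it: the ratio was 1.11 for *Xbp1*, 1.19 for *Herpud1*, 1.04 for *Pdia5* and 1.03 for *Ern2*, and it was below 1 for *Trib3* (0.933), *Ddit3* (0.862), *Ppp1r15a* (0.850) and *Ern1* (0.825). At the other end, WT mouse 1 had the lowest level of 8 mice in 13 members, and it was the lowest for 13.2% of all genes tested. Mitochondrial genes took 6.38% of the reads in WT mouse 2 and 13.9% in WT mouse 1, where the members summed to 8109 and 4831 CPM. The share was lowest in KO mouse 2 (5.70%), where the members summed to 6015 CPM. The part of this share in the levels of the members was not tested. Goblet cell markers (9 genes, none at 0) summed to 59240 CPM in WT mouse 2 and 24780 CPM in WT mouse 1, with 39440 and 42720 CPM in the other 2 WT mice and 50500 to 66610 CPM in the KO mice. *Muc2*, a gene of this list, was far lower in these mice than in those after DSS (values below), so the make-up of the sum differs between the experiments. Plasma cell markers summed to 238 CPM in WT mouse 2, inside the 206 to 347 CPM of the other 7 mice. Most of that sum was *Sdc1*, which epithelium also makes, while *Mzb1* and *Tnfrsf17* stood at 0 to 0.287 CPM and *Igha* at 8.76 to 77.9 CPM. T cell markers were at 38.2 CPM in WT mouse 2 (29.3 to 154 CPM in the others). The part of goblet cell content in the levels of WT mouse 2 was not tested.

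**Figure D3:**
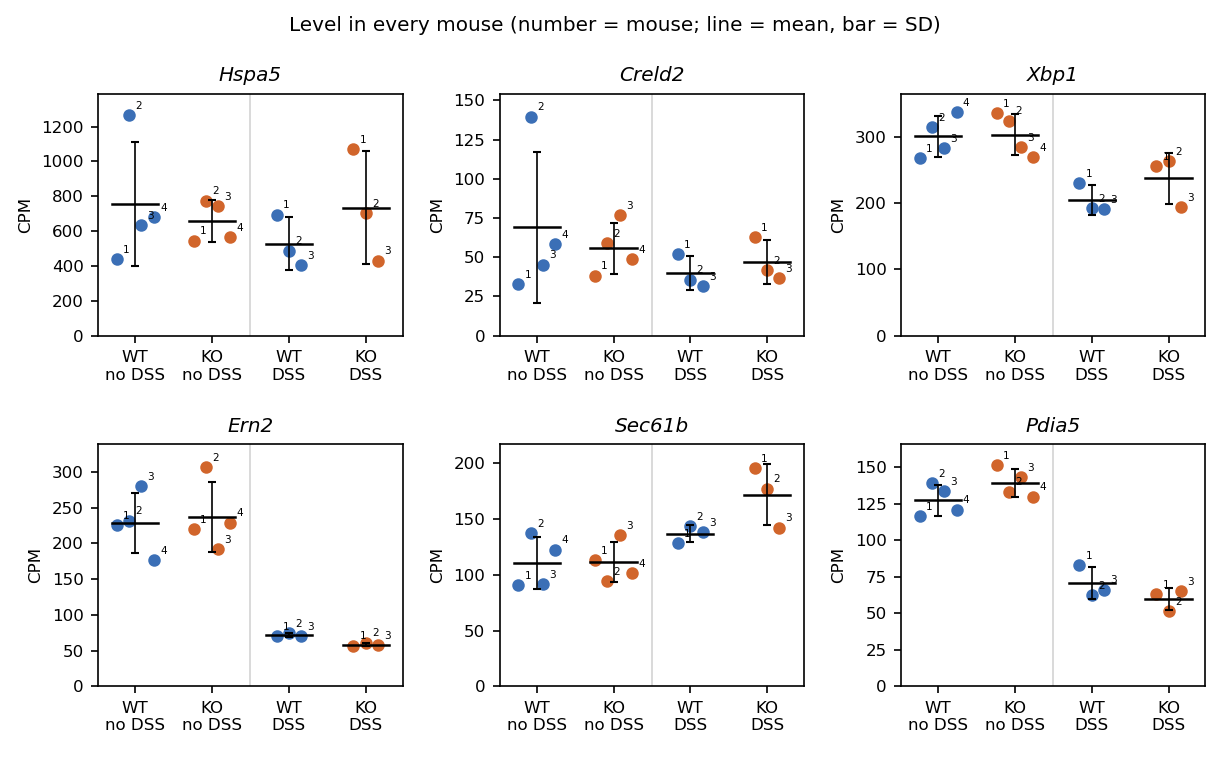
CPM per mouse (points, with mouse numbers) for members the text follows, in WT and KO mice without DSS and after DSS, with the group mean as a horizontal line and its SD as the error bar. Levels were scaled within each experiment, and the y axes start at 0. *Hspa5* spans 438 to 1267 CPM in WT mice without DSS, and *Ern2* after DSS is at 70.6 to 74.5 CPM in WT and 56.9 to 61.2 CPM in KO mice.

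The spread between mice differed from member to member. The SD of log2 CPM within genotype was 0.48 for *Hspa5* without DSS, and 4.61% of genes above 10 CPM had a larger one. Over the 9 chaperones it ran from 0.29 for *Dnajc3* (14.9% larger) to 0.70 for *Creld2* (1.94% larger), while for *Xbp1* it was 0.15 (61.2% larger). After DSS the SD was 0.54 for *Hspa5* (3.11% larger), 0.143 for *Dnajc3* (51.6% larger), 0.125 for *Dnajb11* (61.9% larger) and 0.05 for *Ern2* (97.3% larger).

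Some of the members that varied did so together with *Hspa5*. Over the 8 mice without DSS, 8 of the other 31 members had a Pearson's r of at least 0.9 with *Hspa5* in log2 CPM, as did 0.492% of all genes, and the median r was 0.74 over members and 0.00 over all genes. The highest were *Creld2* (r = 0.97, Spearman's rho = 0.95, exact permutation p = 0.000397, 0.00615 after Benjamini-Hochberg adjustment over 31 correlations), *Hyou1* (r = 0.96, rho = 0.98, exact permutation p = 0.000124, adjusted 0.00384) and *Dnajc3*, a J-domain co-chaperone (r = 0.96, rho = 0.83, exact permutation p = 0.00119, adjusted 0.00738). *Pdia4*, a disulfide isomerase, and *Manf* each had r = 0.95 (adjusted exact permutation p = 0.00634 for both). Without WT mice 2 and 1, the 2 farthest in *Hspa5*, r over the remaining 6 mice was 0.95 for *Hyou1*, 0.85 for *Pdia4*, 0.84 for *Creld2*, 0.81 for *Manf* and 0.70 for *Dnajc3*. By rho, the adjusted exact permutation p was 0.0682 for *Dnajc3*, *Manf* and *Dnajb11*. For *Dnajb11* r went from 0.91 to 0.68 without the 2 mice. For *Hsp90b1* it went from 0.90 to 0.56, for *Asns* from 0.92 to 0.62 and for *Atf4*, the transcription factor of the PERK branch, from 0.89 to 0.32, so those of *Hsp90b1*, *Asns* and *Atf4* rested largely on those mice. Of the 8 members with r of at least 0.9, *Creld2*, *Dnajc3*, *Hsp90b1* and *Dnajb11* hold an ERSE or ERSE-II among the elements printed above. *Asns* holds a CARE, the window of *Pdia4* held none of the 4 patterns, and those of *Hyou1* and *Manf* were not used. Over the 27 members with a window, 6 held an ERSE, 2 an ERSE-II and 4 a CARE. Outside the 8, *Pdia6* and *Syvn1*, each with an ERSE, were at r = 0.87. *Herpud1*, with an ERSE-II and a CARE, was at 0.16, and at -0.73 without the 2 mice. *Chac1*, with a CARE, was at 0.74. *Trib3*, also with a CARE, was at -0.10, though its SD within genotype without DSS (0.57) was above that of *Hspa5*. The part of these elements in the correlations was not tested.

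The sensors and late response genes ranged widely. Without DSS, r with *Hspa5* was 0.57 for *Atf6* and 0.55 for *Eif2ak3* (exact permutation p = 0.139 and 0.161), 0.39 for *Xbp1* (exact permutation p = 0.36), 0.08 for *Ern2* (p = 0.852), -0.21 for *Ern1* (p = 0.607), -0.27 for *Ddit3* (p = 0.535) and -0.44 for *Ppp1r15a*, the phosphatase subunit that ends the PERK signal (exact permutation p = 0.267). Over the 6 mice after DSS, 8 of 30 members again had r of at least 0.9 with *Hspa5* (1.62% of all genes), with a median of 0.70 over members and -0.01 over genes. They were led by *Hsp90b1* and *Dnajb9*, a J-domain co-chaperone, at r = 0.98 each (rho = 0.94, exact permutation p = 0.00278 and 0.00417, adjusted 0.0278 for both). Without KO mouse 1 and WT mouse 3, the 2 farthest, r over 4 mice was 0.95 and 0.98. *Xbp1* was at r = 0.90 after DSS (rho = 0.89, exact permutation p = 0.025, adjusted 0.075). No relation after DSS had an adjusted p under 0.05 by rho (lowest 0.117). All mice of an experiment share the scaling to library size. *Ern1* was below 0 in both experiments (-0.55 after DSS, exact permutation p = 0.265), as was *Ddit3* (-0.11, exact permutation p = 0.767). For *Ern1* without DSS, rho was -0.02, and r was 0.03 without WT mice 2 and 1.

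**Figure D4:**
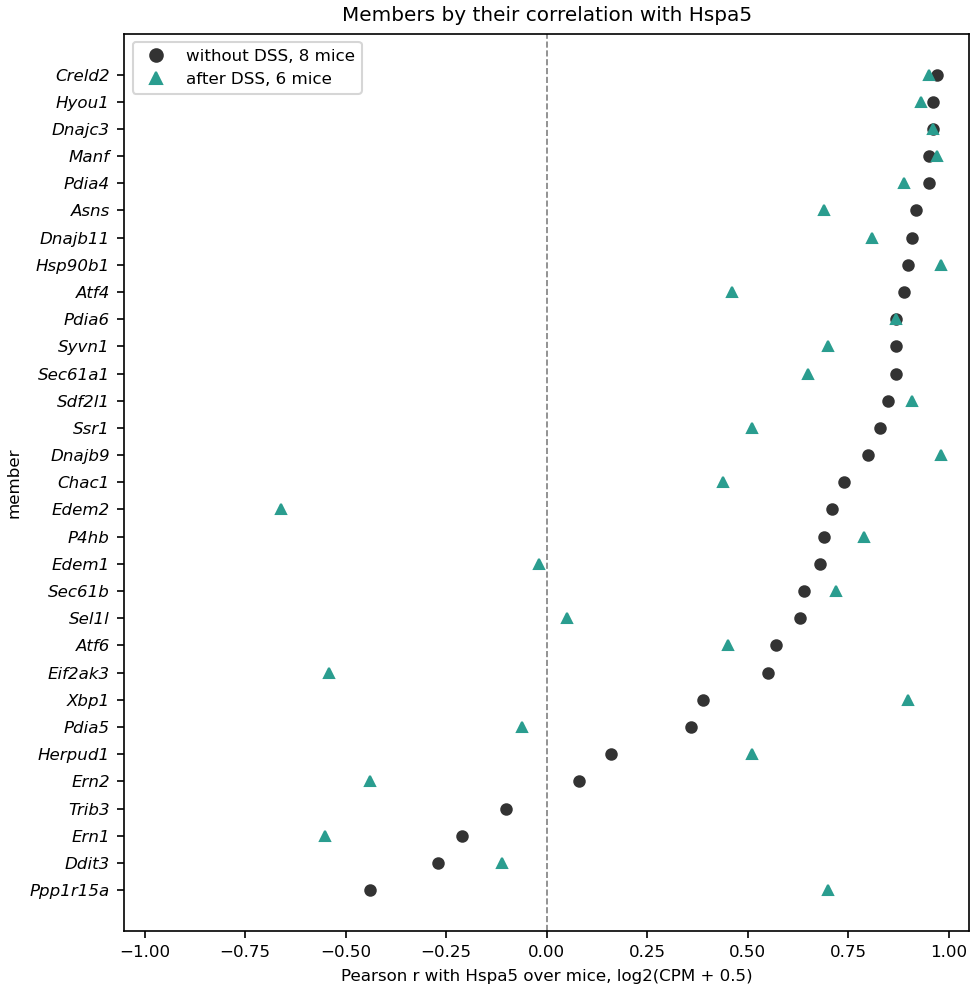
Pearson's r of each other member with *Hspa5* across mice, in log2 CPM, over 8 mice without DSS and 6 mice after DSS. Most chaperones lie near the right edge in both (*Creld2* at 0.97 and 0.95). *Ern1* (-0.21 and -0.55) and *Ddit3* (-0.27 and -0.11) lie left of 0 in both.

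After DSS, 0 of 31 members had an adjusted p under 0.05 between genotypes (0.0134% of genes, lowest member 0.646). At an unadjusted p under 0.05, 1 member was higher in KO mice (3.98% of genes) and 1 was lower (3.25%), shares of the members close to those of all genes. Genotypes did not overlap in 1 member higher in KO mice (5.33% of genes) and 2 lower (6.28%). The median log2 fold change was 0.10 over members and 0.00 over all genes, and 24 of 31 members were above 0 (49.0% of genes). The median was -0.01 without KO mouse 1 and 0.19 without KO mouse 3.

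*Ern2*, the IRE1 form of mucus-secreting epithelium, was the lower member. It was at 70.6, 74.5 and 70.6 CPM in WT mice 1 to 3 and at 56.9, 61.2 and 57.5 CPM in KO mice 1 to 3. Every KO mouse was below every WT mouse, and mice within a genotype differed little. Its log2 fold change was -0.30 (SE 0.09, 95% interval -0.49 to -0.10, edgeR adjusted p = 0.646), with an unadjusted p under 0.05. In a model over all 14 mice, which shares the spread between experiments, the unadjusted p was above 0.05 and the fold was -0.29. Goblet cell markers summed to 25580, 26240 and 36900 CPM in the WT mice and to 15860, 20740 and 33350 CPM in the KO mice, with 8 of 9 markers below 0 and none at an unadjusted p under 0.05. Their part in the level of *Ern2* was not tested. *Edem2*, which helps to release misfolded glycoproteins for degradation, was also lower in each KO mouse, at 51.8, 48.0 and 58.1 CPM beside 59.6, 63.3 and 60.8 CPM in WT mice (log2 fold change -0.22, SE 0.10, edgeR adjusted p = 0.668).

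*Sec61b*, a small subunit of the translocon channel, was the higher member. It was at 129, 143 and 138 CPM in WT mice and at 196, 177 and 142 CPM in KO mice. KO mice 1 and 2 were above all WT mice, and KO mouse 3 was inside their range. Its log2 fold change was 0.33 (SE 0.13, 95% interval 0.04 to 0.61, edgeR adjusted p = 0.655), with an unadjusted p under 0.05. Without WT mouse 1 (0.28), WT mouse 3 (0.34), KO mouse 1 (0.22) or KO mouse 2 (0.30), and in the model over all 14 mice (0.33), the unadjusted p was above 0.05. The same 2 KO mice had the highest shares of mitochondrial reads (14.8% and 20.2%), whose part in this was not tested. Macrophage and neutrophil markers (6 genes) summed to 130 and 243 CPM in KO mice 1 and 2, beside 94.1 CPM in KO mouse 3 and 48.2 to 101 CPM in WT mice. All 6 had a fold above 0 (median log2 0.89), 1 of them at an unadjusted p under 0.05, and their part in the levels of the members was not tested.

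*Hspa5* was at 695, 488 and 404 CPM in WT mice and at 1073, 702 and 431 CPM in KO mice after DSS, so the genotypes overlapped (log2 fold change 0.48, SE 0.36, 95% interval -0.38 to 1.33, edgeR adjusted p = 0.756). Without KO mouse 1 the fold was 0.10. *Xbp1* was at 230, 193 and 191 CPM in WT mice and at 256, 263 and 194 CPM in KO mice (0.22, SE 0.14, adjusted p = 0.72). In both genes KO mice 1 and 2 were above all 3 WT mice and KO mouse 3 was among them. *Atf4* was at 171, 179 and 179 CPM in WT mice and at 204, 238 and 186 CPM in KO mice, without overlap (0.25, SE 0.11, adjusted p = 0.668). *Ppp1r15a* was at 36.1, 21.5 and 19.4 CPM in WT mice and at 42.3, 69.0 and 29.4 CPM in KO mice (0.87, SE 0.39, 95% interval -0.09 to 1.82, edgeR adjusted p = 0.668). By DESeq2, *Ppp1r15a* (0.88), *Sec61b* (0.33) and *Atf4* (0.26) were higher and *Ern2* (-0.29) lower at an unadjusted p under 0.05, and 0 members had an adjusted p under 0.05. Among all genes, 1180 were under that unadjusted threshold by DESeq2, in either direction. *Trib3*, too low for the count test, gave p = 0.4 in an exact permutation test of both sides, whose smallest value with 3 mice in each genotype is 0.1.

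These folds turned on the mouse. Without KO mouse 3, 8 members were higher at an unadjusted p under 0.05 and 2 lower, beside 8.43% and 8.13% of all 15283 genes then tested, and 0 passed an adjusted p under 0.05. The 8 were *Sec61b* (0.45), *Atf4* (0.33), *Asns* (0.36), *Ppp1r15a* (1.11), *Xbp1* (0.34), *Hspa5* (0.75), *Hsp90b1* (0.49) and *Dnajb9* (0.27), and the 2 were *Edem2* (-0.30) and *Ern2* (-0.29). The 9 chaperones all had a fold above 0 after DSS (median 0.15, none at an unadjusted p under 0.05). Without KO mouse 1, 4 of the 9 were above 0 and their median was -0.03. KO mouse 1 had the highest level of 6 mice in 19 of 31 members (17.4% of genes) and at least 1.5 times the median of the others in 3 (9.68%, beside 8.77% of genes), namely *Hspa5* (2.20 times), *Creld2* (1.72 times) and *Hsp90b1* (1.61 times). T cell markers summed to 112 CPM in KO mouse 1 and to 35.2 to 70.3 CPM in the other 5 mice, and goblet cell markers were lowest in it.

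Whether genotype acted differently with and without DSS was tested in the interaction of both factors over 14 mice and 16370 genes. Of the 32 members 0 had an adjusted p under 0.05 (0% of genes) and 1 an unadjusted p under 0.05 (4.03%). That member was *Pdia5*, a disulfide isomerase. Without DSS it was at 116, 139, 134 and 121 CPM in WT mice and at 151, 133, 143 and 130 CPM in KO mice, and after DSS at 83.3, 62.7 and 66.2 CPM in WT mice and at 63.4, 51.3 and 65.2 CPM in KO mice. Genotypes overlapped in both experiments. The log2 fold changes were 0.13 and -0.24, and their difference was -0.36 (SE 0.17, 95% interval -0.72 to -0.01, edgeR adjusted p = 0.987). Its unadjusted p was above 0.05 without any of 8 mice: WT mice 1, 3 and 4 or KO mice 1, 2 and 3 of those without DSS (difference -0.38 to -0.31), or WT mouse 1 (-0.23) or KO mouse 2 (-0.26) of those after DSS. For *Ern2* the difference was -0.35 (SE 0.21, adjusted p = 0.987), so the fold after DSS was not shown to differ from that without DSS, and for *Hspa5* it was 0.68 (95% interval -0.43 to 1.79, adjusted p = 0.987).

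The levels with and without DSS were set side by side on a common scale with no test, since DSS and the separately made tables cannot be told apart. Of the 32 members, 25 overlapped between the 8 mice without DSS and the 6 mice after DSS, 5 were lower in every mouse after DSS (13.2% of genes) and 2 were higher (15.6%). *Ern2* had a median of 205 CPM without DSS (165 to 283) and 74.2 CPM after DSS (64.3 to 83.7), 2.76 times lower. The median of *Ern1*, the widely expressed IRE1, was 85.5 CPM without DSS and 45.4 CPM after DSS (1.88 times lower). For *Pdia5* the medians were 122 and 72.6 CPM, and for *Edem1*, which helps to mark glycoproteins for degradation, 180 and 138 CPM. *Trib3* was at 1.14 and 0.295 CPM, from 13 to 54 reads per mouse without DSS and 2 to 13 after DSS. It was too low for the test after DSS and entered this comparison through the mice without DSS. Its place among the 5 therefore carries no weight.

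The 2 members higher after DSS were *Ppp1r15a*, with a median of 7.99 CPM without DSS and 37.0 CPM (21.8 to 77.7) after DSS, 4.63 times higher, and *Sec61b*, with 97.8 and 161 CPM (1.65 times higher). Chaperones overlapped: *Hspa5* had medians of 604 and 666 CPM. Outside the list, *Muc2*, the main mucin of goblet cells, was at 22.1 to 164 CPM in the table without DSS and at 3549 to 7992 CPM in the table after DSS. How far such a gap between the tables enters the levels of the members was not tested.

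Other genes of the same pathways were counted in the same way. Of 50 further UPR, folding and translocation genes, 48 were found and tested. Without DSS 0 were higher and 0 lower at an unadjusted p under 0.05 (2.09% and 1.58% of all genes, median log2 fold change -0.03), and their summed level was highest in WT mouse 2 (12280 CPM beside 8752 to 10840 CPM). After DSS, where 3.98% of all genes were higher and 3.25% lower, 1 was higher at that threshold, *Ssr2*, a subunit of the translocon-associated complex (0.33, SE 0.10, edgeR adjusted p = 0.646), and 3 were lower: *Creb3l1*, an ER-bound transcription factor (-0.49, SE 0.14, adjusted p = 0.646), *Txndc5*, a disulfide isomerase (-0.37, SE 0.12, adjusted p = 0.646) and *Bhlha15* (MIST1), a factor of secretory cells (-0.52, SE 0.21, adjusted p = 0.661). Of 24 further ATF4 and integrated stress response genes, 0 were higher and 2 lower without DSS, namely *Nupr1* (-0.56, SE 0.14, adjusted p = 0.879) and *Cth* (-0.29, SE 0.11, adjusted p = 1). After DSS, *Slc7a11*, the cystine transporter, was higher (0.63, SE 0.27, adjusted p = 0.668), and *Gpt2* (-0.62, SE 0.22, adjusted p = 0.646) and *Sesn2* (-0.39, SE 0.17, adjusted p = 0.668) were lower. None of these further genes had an adjusted p under 0.05 in either experiment.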

How the data were processed

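RNA of 14 mice was extracted with TRIzol, and libraries were made with a kit that keeps strand. For each experiment the authors deposited counts, raw and not normalized, of reads per gene; HISAT2 and DESeq2 are named in the submitters' processing notes, without versions, and the genome build and the use of strand in counting are not given in the sources used here. The authors also deposited FPKM values (14 columns, not used here), gene lengths in bases, and fold changes and p-values of their own comparison, which were not used. Gene coordinates of all members equal those of GENCODE vM21 on GRCm38. Exons of 9 members overlap a gene on the opposite strand (*Ddit3*, *Dnajb9*, *Eif2ak3*, *Hsp90b1*, *Manf*, *Pdia6*, *Ppp1r15a*, *Sec61a1* and *Syvn1*) and those of 4 a gene on the same strand (*Ddit3*, *Hsp90b1*, *Manf* and *Pdia4*), so their reads may be shared. A second identifier named *Ddit3* had 0 reads in every mouse and was not counted as a member. Mice after DSS are named by the column numbers 1 to 3 of the table, which are not the numbers in the sample labels.

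Within each table, genes were filtered with filterByExpr (minimum count 10, minimum total 15), scaled by TMM and compared with edgeR 4.0.16 (quasi-likelihood test, R 4.3.3), with Benjamini-Hochberg adjustment over all genes. SE was the log2 fold change divided by the square root of F, and intervals are 95%. CPM uses the TMM library size, and log2 CPM in correlations and spread had 0.5 added. A model over 4 groups gave the interaction. As alternatives, each mouse was left out, all 14 mice were fitted in one model, the replicate number entered as a block, DESeq2 1.42.0 took the place of edgeR and RLE factors that of TMM, and genes were unfiltered, limited to 10 or more counts per mouse or limited to protein-coding ones. The share of chaperones on each side of 0 with each mouse left out, and a block by column number after DSS, were added after seeing the data. The members and lists were chosen with earlier results of these data known. All members are accounted for: mouse values are given for *Hspa5*, *Xbp1* and members past an unadjusted threshold or without overlap, and others where a result turned on them, chosen after their values were seen. In counts drawn from the real means, the test at an adjusted p under 0.05 recovered 111 of 200 genes with a 2-fold change (55.5%) in each genotype comparison and 67 (33.5%) in the interaction, none in the wrong direction. Depth of 3 reads was 0.125 to 0.215 CPM.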

Additional observations from a re-analysis of the deposited data

Results flagged for a closer look

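In 2 of 64 groups of 4 mice without DSS, a member had 1 mouse far from the other 3, where chance alone gives about 1 in 20. *Edem1* in WT mouse 2 was at 236.4 CPM, with 182.7 CPM the nearest of the other WT mice. *Ssr1*, a subunit of the translocon-associated complex, was at 172.6 CPM in KO mouse 4, with 196.8 CPM the nearest. Groups of 3 mice after DSS were not examined in this way.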

How the results depend on the processing

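The number of members with an adjusted p under 0.05 was 0 in both experiments under every alternative run there, and in the interaction under DESeq2, RLE size factors, both other filters on counts and with each mouse left out (no block and no limit to protein-coding genes was run for it). Both medians moved by less than the spread between mice, but changed sign: leaving out single mice, they ran from -0.079 to 0.126 without DSS (above 0 without WT mouse 2) and from -0.01 (without KO mouse 1) to 0.188 (without KO mouse 3) after DSS. At an unadjusted p under 0.05 without DSS it was 0 in both directions throughout. After DSS, the members higher in KO mice were 3 by DESeq2 and 2 each with RLE size factors, with no filter and with protein-coding genes, and 0 to 8 when leaving out single mice. The members lower were 0 with all 14 mice in one model, and 1 to 2 when leaving out single mice. The number of all genes under that threshold, in either direction, moved as well. In the main test it was 1078, with 3.98% of 14908 genes higher and 3.25% lower. It was 1180 by DESeq2, 1084 with RLE size factors and 1819 with no filter. It was 995 with protein-coding genes, 1156 in the model over all 14 mice and 483 to 2530 when leaving out single mice. The 2530 genes and the 8 members higher came without KO mouse 3, where 8.43% of 15283 genes were higher and 8.13% lower. The interaction gave 0 to 2 members when leaving out single mice, beside 1 member and 4.03% of 16370 genes in the main test. The number of genes moved there too: it was 660 in the main test. It was 510 without WT mouse 4 and 860 without WT mouse 1 of those without DSS. Chaperones with a fold below 0 without DSS numbered 1 to 9, and those above 0 after DSS 4 to 9, when leaving out single mice. Folds near 0 without DSS turned in sign with the mouse left out: *Hspa5* ran from -0.38 to 0.173 (above 0 without WT mouse 2), *Xbp1* from -0.039 to 0.071, *Ern2* from -0.090 to 0.168 and *Sec61b* from -0.092 to 0.130. The cause of these changes was not tested, and fits with a mouse left out hold fewer samples.

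With the replicate number as a block without DSS, 0 members were called and the median was -0.039. Mice of 1 number share only the number: correlations of their deviations were -0.03, 0.15, -0.21 and -0.11, and 0 of 4 WT mice went best with their own number. After DSS the columns do not carry the numbers of the labels. A replicate block by column number, added after seeing the data, gave 0 called members, a median of 0.090, and 3 members higher and 1 lower at an unadjusted p under 0.05 (4.16% and 3.90% of genes); *Hspa5* (0.42) was then under that threshold. Correlations by column number were -0.07, 0.05 and 0.08, and 1 of 3 WT mice went best with its own. The 95% interval lay within 1 of 0 in 28 of 32 members without DSS and 28 of 31 after DSS, and in the others a 2-fold change could be missed.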
